A study of Mus musculus with 2 samples.

Results

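Adhesion G protein-coupled receptors are cell-surface receptors with a long extracellular part for binding other cells or matrix and a bundle of membrane-spanning helices that can couple to G proteins. The genes described here are the protein-coding genes of the GENCODE M21 annotation whose symbol starts with Adgr, followed by a subfamily letter (A, B, D, E, F, G, L or V) and a number. This rule took 27 of the 22028 protein-coding genes in the tables, and it used names only, not measured values. The samples were 2 pools of forebrain from healthy mouse embryos of strain B6NCrl at embryonic day 12.5, with males and females mixed. Pool 1 held tissue of 120 embryos and pool 2 tissue of 68 embryos. No allele, agent or treatment distinguished the pools, so the study has 1 group and no contrast. PolyA RNA was read from 10 ng of RNA in each pool, with cDNA primed by oligo-dT, fragmented by Nextera tagmentation and accompanied by synthetic ERCC spike-in RNAs.

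Most receptors of this class are cut by their own GAIN domain into 2 pieces that stay together, and a short peptide next to the cut, the tethered agonist, can switch the receptor on when the outer piece is moved or removed. Several members are known from the brain: Adgrg1 binds collagen III at the surface of the cortex and is needed there for a correctly bounded cortical plate, the Adgrl receptors (latrophilins) bind teneurins and FLRT proteins across cell contacts and synapses, and the Adgrb receptors act in synapse formation and in the uptake of dying cells. Other members are known from cells that enter the brain with blood vessels or blood, among them Adgrf5, Adgrl4 and Adgra2 in endothelium and Adgre1, the F4/80 antigen, in macrophages.

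Expected counts assigned to genes came to 33373843 in pool 1 and 34406648 in pool 2. Markers of radial glia, the neural stem cells of this stage, were detected for 7 of 7 genes, those of neurons for 6 of 6 and those of GABAergic neurons for 5 of 5. The summed level of the GABAergic markers was 502.8 in pool 1 and 358.58 in pool 2, and that of 6 mesenchyme and meninges markers was 362.07 and 473.7, in TPM (a level corrected for transcript length and scaled so that all transcripts of a library sum to 1000000). Endothelial markers (8 of 8 detected) summed to 102.1 and 101.49 TPM, pericyte markers (5 of 5) to 25.35 and 26.53, microglia and macrophage markers (7 of 8) to 50.9 and 56.17, and red-cell markers (7 of 7) to 11836.45 and 15867.78. In bulk tissue, fewer cells of a type and less RNA per cell cannot be told apart.

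The sequences that bear on the results are of 2 kinds, promoter windows and optional exons. The promoter windows come from RefSeq (build GRCm38.p6) and run from 250 bases before to 50 bases after an annotated start. A window was matched for 20 of the 27 genes, giving 24 windows. Adgrg1, the member with the highest level, has 2 windows at separate starts, shown because both starts carried reads in these tables. Adgra3 is shown as a contrast, since it has 1 start and many CG pairs. Capitals mark each CG pair.
Adgrg1 first start, chr8:94976859-94977158 (+): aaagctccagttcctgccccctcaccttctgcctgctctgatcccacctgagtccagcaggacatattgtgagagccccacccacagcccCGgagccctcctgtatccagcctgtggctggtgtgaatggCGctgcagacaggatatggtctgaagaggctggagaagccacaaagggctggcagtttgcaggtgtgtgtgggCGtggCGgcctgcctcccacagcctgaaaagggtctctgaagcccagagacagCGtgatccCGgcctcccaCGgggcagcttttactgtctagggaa
Adgrg1 second start, chr8:94984149-94984448 (+): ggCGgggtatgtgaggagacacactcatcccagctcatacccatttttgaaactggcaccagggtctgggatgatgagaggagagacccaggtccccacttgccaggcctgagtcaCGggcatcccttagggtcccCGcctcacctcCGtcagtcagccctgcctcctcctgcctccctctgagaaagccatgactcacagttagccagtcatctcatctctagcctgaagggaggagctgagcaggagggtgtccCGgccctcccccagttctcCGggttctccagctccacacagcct
Adgra3, chr5:50058947-50059246 (-): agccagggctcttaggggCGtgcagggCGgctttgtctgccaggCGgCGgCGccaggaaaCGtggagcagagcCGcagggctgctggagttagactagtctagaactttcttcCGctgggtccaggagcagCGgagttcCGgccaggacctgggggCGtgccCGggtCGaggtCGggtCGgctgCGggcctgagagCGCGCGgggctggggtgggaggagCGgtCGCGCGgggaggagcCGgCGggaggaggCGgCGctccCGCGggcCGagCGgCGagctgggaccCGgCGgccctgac

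The Adgrg1 windows held 7 and 6 CG pairs, and 34.1% and 30.7% of the 20150 windows of protein-coding genes held fewer. Both Adgrg1 windows were 60.7% G and C. The Adgra3 window held 34 CG pairs, with 89.5% of all windows holding fewer, and was 74% G and C. Over the 24 windows of the family the median was 8 CG pairs, against 14 over all windows. The 17 windows of detected members had a median of 16 CG pairs and ranged from 4 to 45, and the 7 windows of members that were not detected had a median of 3 and ranged from 0 to 30. Among these, the Adgrg4 window held 0 CG pairs and the Adgrg2 window 30, so the ranges overlapped.

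Every window was also searched on both strands for 3 short motifs. The TATA box letters, TATAAA, occurred in 2 of the 24 family windows (8.33%, against 12.1% of all windows), in Adgrl2 and in 1 of the 3 Adgrl3 windows. The letters CCAAT occurred in 6 family windows (25%, against 37.8%). The letters of the GC box, GGGCGG, occurred in 13 (54.2%, against 47.8%). Neither Adgrg1 window contained any of the 3 motifs. Such matches are descriptions of the letters in these windows.

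Optional exons are coding exons that some transcripts of a gene include and others skip. With both kinds of coding transcript at 1 TPM or more in both pools, 17 exons of up to 250 bases qualified in 6 genes (Adgrb2, Adgre5, Adgrf5, Adgrl2, Adgrl3 and Adgrl4), and 14 of the 17 had a length divisible by 3. Some of the 17 are forms of the same exon with different ends, such as the 97-base and 64-base forms in Adgrl2. No share of such lengths over other genes is given here. The sequences below are shown because Adgrl2 and Adgrl3 have optional exons of the same lengths, and because the Adgre5 and Adgrb2 exons add examples from other subfamilies. They come from the GENCODE M21 transcripts on GRCm38, with the optional exon in capitals and 15 bases of each neighbouring exon in lower case.
Adgrl2 39-base exon, chr3:148849766-148849804 (-): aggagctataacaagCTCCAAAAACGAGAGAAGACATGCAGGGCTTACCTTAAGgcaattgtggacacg
Adgrl3 39-base exon, chr5:81663386-81663424 (+): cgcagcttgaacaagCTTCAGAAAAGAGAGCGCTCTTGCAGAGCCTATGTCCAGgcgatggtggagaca
Adgrl2 27-base exon, chr3:148827212-148827238 (-): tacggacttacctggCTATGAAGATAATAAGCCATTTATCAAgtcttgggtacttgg
Adgrl3 27-base exon, chr5:81757986-81758012 (+): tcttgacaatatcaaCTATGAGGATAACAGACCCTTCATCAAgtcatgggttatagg
Adgrl2 12-base exon, chr3:148860427-148860438 (-): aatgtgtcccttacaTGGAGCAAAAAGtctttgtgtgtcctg
Adgrl2 45-base exon, chr3:148827541-148827585 (-): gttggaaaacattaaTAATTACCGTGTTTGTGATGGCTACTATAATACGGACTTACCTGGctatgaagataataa
Adgre5 147-base exon, chr8:83730111-83730257 (-): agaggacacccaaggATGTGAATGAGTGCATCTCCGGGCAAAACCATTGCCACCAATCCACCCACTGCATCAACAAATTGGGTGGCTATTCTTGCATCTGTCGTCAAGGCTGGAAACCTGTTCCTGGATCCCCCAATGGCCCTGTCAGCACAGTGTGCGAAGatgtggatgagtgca
Adgrb2 165-base exon, chr4:130005390-130005554 (+): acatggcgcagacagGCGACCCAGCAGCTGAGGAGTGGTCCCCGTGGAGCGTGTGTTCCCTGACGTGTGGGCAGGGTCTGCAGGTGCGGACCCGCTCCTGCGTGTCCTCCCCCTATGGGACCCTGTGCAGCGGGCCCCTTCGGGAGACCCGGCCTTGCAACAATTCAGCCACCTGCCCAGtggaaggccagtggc

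Of the 27 genes, 17 (63.0%) had at least 1 TPM in both pools and are called detected. The same rule called 58.9% of all protein-coding genes detected, so the share in the family lay near the background. Adgrg2 reached 1 TPM in 1 pool only, and 9 genes reached it in neither. The median level over all 27 genes was 2.00 ± 0.410 TPM (SD, n = 2), against 4.08 TPM over all protein-coding genes. Among detected genes the median was 7.85 TPM for the family and 21.9 TPM for all protein-coding genes. Summed over the family, the level was 427.18 TPM in pool 1 and 410.26 TPM in pool 2.

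A few genes made up most of this sum. Adgrg1 alone held 40.5% of it in pool 1 and 34.3% in pool 2, and Adgrg1 with Adgrl2 held 59.3% and 54.3%. By subfamily, all 4 L genes, all 3 A genes, all 3 B genes and the single V gene were detected. In contrast, 3 of 7 G genes, 2 of 3 E genes, 1 of 5 F genes and 0 of 1 D gene were detected. The G subfamily summed to 176.78 and 145.74 TPM, the L subfamily to 133.25 and 139.3 TPM, the A subfamily to 39.96 and 45.7 TPM and the B subfamily to 25.37 and 27.66 TPM.

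**Figure D1:**
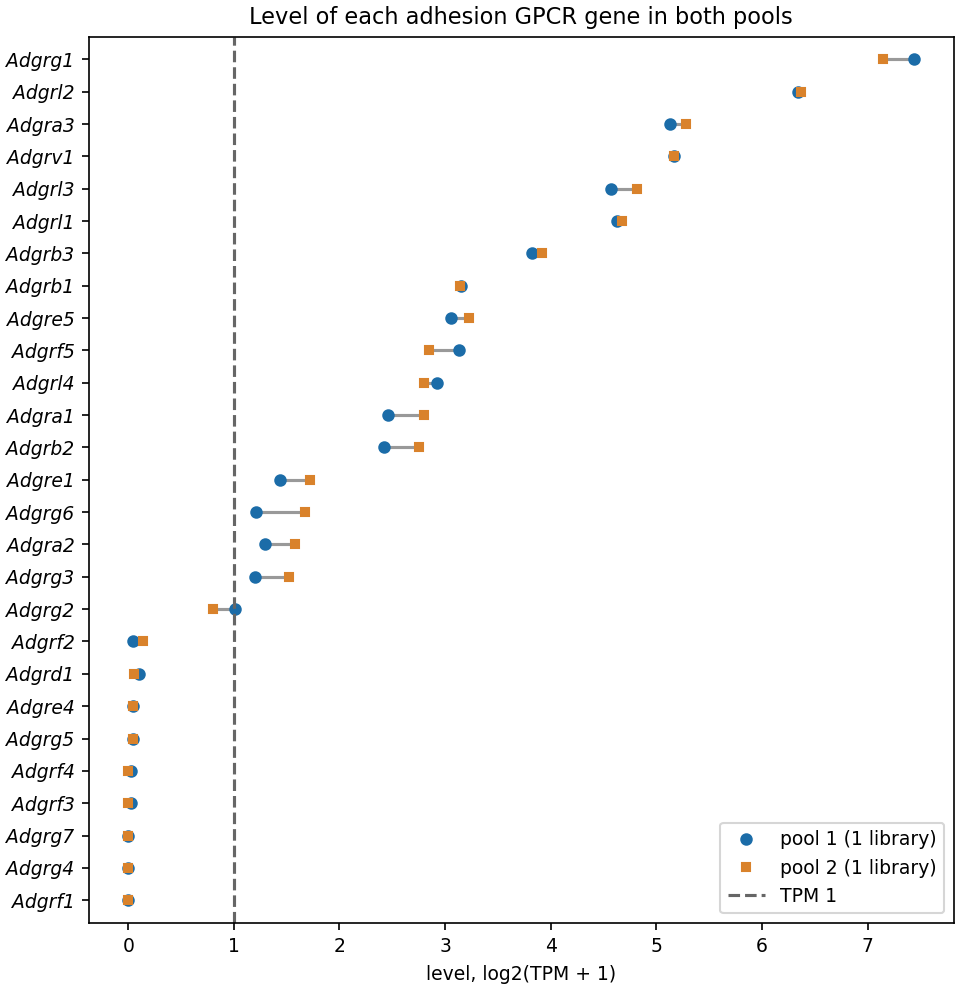
Level of each of the 27 genes as log2(TPM + 1) on the horizontal axis, with pool 1 as circles and pool 2 as squares and a dashed line at 1 TPM. Adgrg1 and Adgrl2 lie above all other members in both pools, 17 genes lie right of the line in both pools, and Adgrg2 straddles it.

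Adgrg1 (ENSMUSG00000031785.16, chr8:94974751-95014217, + strand, GRCm38) had 173.11 TPM from 9842 expected counts in pool 1 and 140.9 TPM from 8502 in pool 2, giving 157 ± 22.8 TPM (SD, n = 2). It stood above every other member in both pools and above 95.6% of protein-coding genes. Its neighbours of the same subfamily were low: Adgrg5, 31.5 kb to its left, had 0.03 TPM in both pools, and Adgrg3, which begins 3.47 kb to its right, had 1.3 and 1.87 TPM. Adgrg3 and Adgrg5 are known mainly from white blood cells. Genes close together in the genome thus differed widely in level here.

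The partners of Adgrg1 were all detected (5 of 5). Col3a1, the collagen III ligand made by meningeal and other mesenchymal cells, had 286.79 and 315.24 TPM. Tgm2, a transglutaminase that binds the outer part of the receptor, had 3.56 and 3.37 TPM. Downstream, the small GTPase gene Rhoa had 266.22 and 259.27 TPM and the G protein gene Gna13 had 16.29 and 16.22 TPM. Gna12, which codes for the related alpha subunit, had 9.22 and 18.75 TPM.

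The latrophilins were the next group. Adgrl2 (ENSMUSG00000028184.12, chr3:148815583-148990555, - strand) had 80.2 and 81.76 TPM, above 90.3% of protein-coding genes. Adgrl3 (chr5:81020138-81825133, + strand) had 22.78 and 27.11 TPM and Adgrl1 (chr8:83900105-83941954, + strand) 23.69 and 24.47 TPM. The values of Adgrl3 and Adgrl1 overlapped, while Adgrl2 lay more than its spread above both. Adgrl4, named with them by sequence but known from endothelium, had 6.58 and 5.96 TPM.

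All 11 listed partners of the latrophilins were detected. Among the FLRT genes, whose products are single-pass membrane proteins with leucine-rich repeats, Flrt3 had 55.85 and 67.42 TPM, Flrt2 had 20.32 and 23.17 TPM and Flrt1 had 5.7 and 6.25 TPM. Among the teneurins, large transmembrane proteins of contacting cells, Tenm4 had 41.17 and 48.77 TPM and Tenm3 had 30.3 and 32.88 TPM, while Tenm2 and Tenm1 had means of 7.86 and 4.93 TPM. The neurexin gene Nrxn3 had 55.48 and 48.69 TPM. Unc5d, a netrin receptor family gene whose product joins FLRT and latrophilin in a complex, was the lowest of the list with 1.54 and 1.93 TPM.

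Adgra3 (chr5:49959956-50059006, - strand) had 34.01 and 37.77 TPM, Adgra1 had 4.5 and 5.95 TPM and Adgra2 had 1.45 and 1.98 TPM. Adgra2, also called Gpr124, works with the membrane-anchored protein Reck as a receptor for Wnt7a and Wnt7b during growth of brain vessels. Reck had 6.97 and 8.85 TPM, Wnt7b had 86.42 and 101.81 TPM and Wnt7a had 17.18 and 12.55 TPM. The Frizzled gene Fzd4 had 1.89 and 2.58 TPM, near the level of Adgra2. All 10 listed partners of this subfamily were detected, also the scaffold gene Dlg1 (23.04 and 31.14 TPM) and the Wnt signalling genes Dvl1, Dvl2 and Dvl3.

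Among the B receptors, Adgrb3 (chr1:25067476-25829707, - strand) had 13.13 and 14.11 TPM, Adgrb1 had 7.9 and 7.81 TPM and Adgrb2 had 4.34 and 5.74 TPM. Adgrb3 was the highest of the 3 in both pools, and the order was the same in both. Of 16 listed partners, 13 were detected. Of the C1q-like genes, whose secreted products bind Adgrb3 at synapses, C1ql1 had 3.15 and 2.9 TPM, and C1ql2, C1ql3 and C1ql4 did not reach 1 TPM in both pools. The engulfment genes that act inside the cell were higher, with 77.77 and 74.11 TPM for Elmo2 and 18.15 and 19.14 TPM for Dock1.

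The largest receptor, Adgrv1 (chr13:81095068-81633154, - strand), links the bundles of hair-cell stereocilia and is a gene of Usher syndrome. It had 34.88 and 34.83 TPM, a level that overlapped that of Adgra3. Of its 6 listed partners in the ear and eye, 4 were detected. Whrn, which codes for a scaffold of that complex, had 7.32 and 8.22 TPM and Myo7a, its motor, 15.12 and 14.77 TPM. Pdzd7, which codes for another scaffold protein, had 0.35 and 0.39 TPM and did not reach the threshold.

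Members known from vessels and blood cells had low to middle levels. Adgrf5 had 7.75 and 6.19 TPM, Adgrl4 6.58 and 5.96 TPM, and Adgre5, a receptor of white blood cells that binds Cd55, 7.31 and 8.38 TPM. Adgre1 had 1.71 and 2.29 TPM. The 8 endothelial markers ranged in mean from 4.99 TPM (Tek) to 19.6 TPM (Kdr), and the macrophage markers included Csf1r at 6.22 and 6.51 TPM. Cd55 had 1.82 TPM in both pools, Itga5 had 13.13 and 13.56 TPM, and Thy1, another ligand of Adgre5, had 0.06 and 0 TPM. The part of vessel and blood cells in these levels was not tested.

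Adgrg6, the Schwann-cell receptor that starts myelination, had 1.32 and 2.2 TPM. Its listed partners were all detected, with Col4a1 at 78.22 and 79.58 TPM and Prnp at 52.82 and 51.96 TPM. Of the Schwann-cell and neural-crest markers, the transcription factor gene Sox10 had 1.15 and 1.89 TPM and the neuregulin receptor gene Erbb3 had 1.55 and 1.56 TPM.

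The genes not detected included most F and G receptors. Adgrg2, known from the epididymis, had 1.02 and 0.74 TPM. Adgrf1, Adgrg4 and Adgrg7 had 0 counts in both pools, which allows levels of up to 0.0376, 0.0301 and 0.0544 TPM in pool 1 and 0.0361, 0.0289 and 0.0522 TPM in pool 2, counting 3 reads as the floor. Adgrd1 had 0.07 and 0.04 TPM, Adgrf2 0.03 and 0.1 TPM, and Adgre4 0.03 TPM in both pools. Adgrf3 and Adgrf4 each had 1 count in pool 1 and 0 in pool 2. On chromosome 17, Adgrf4, Adgrf2, Adgrf1 and Adgrf5 lie in this order, with 16.7, 528.1 and 35.7 kb between them, and Adgrf5 was the only one of the 4 that was detected.

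The 3 Celsr genes, which are adhesion receptors by sequence but carry other symbols, were all detected. Celsr2 had 47.84 and 47.32 TPM, Celsr3 11.11 and 10.19 TPM and Celsr1 5.66 and 6.18 TPM. Celsr2 thus lay below Adgrl2 and above Adgra3. The shared signalling genes were broadly present: 12 of 13 G protein alpha subunit genes were detected, from Gnas at 1000.99 and 1025.16 TPM and Gnai2 at 458.01 and 446.29 TPM down to Gna14 at 2.06 and 1.05 TPM. Gna15 had 0.38 and 0.72 TPM. Both beta-arrestin genes were detected, Arrb2 at 31.58 and 28.91 TPM and Arrb1 at 9.53 and 8.42 TPM.

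**Figure D2:**
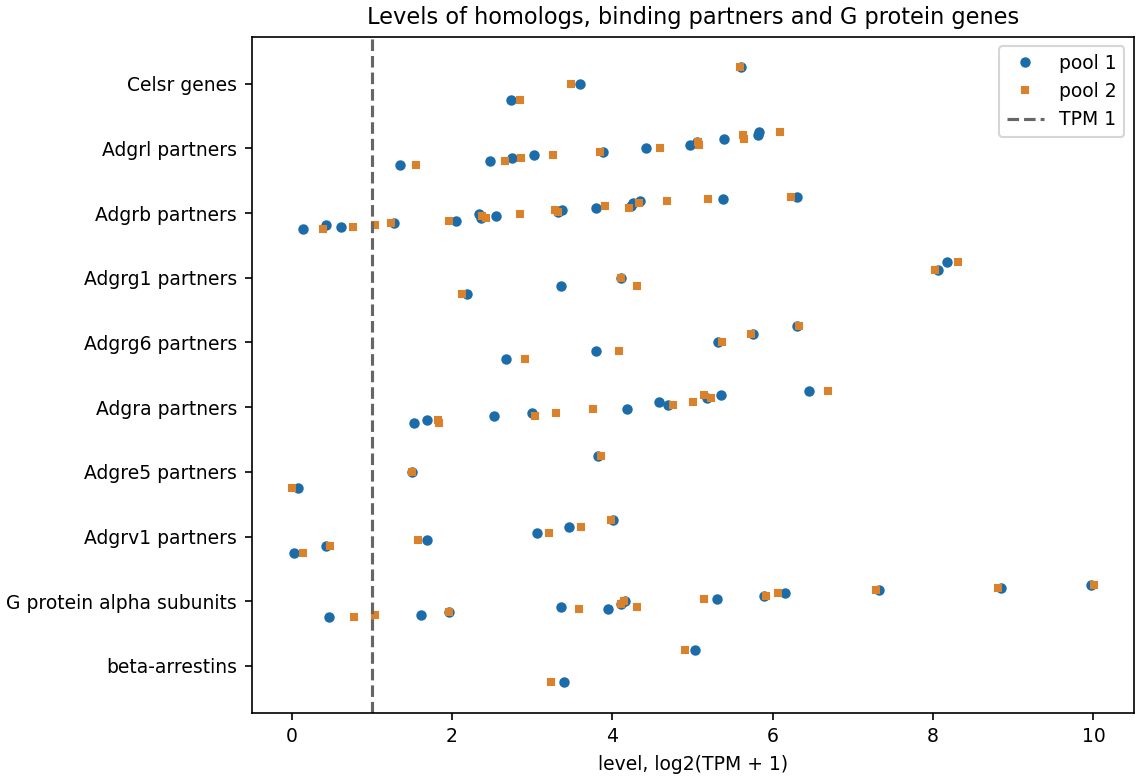
Levels of Celsr homologs, binding partners, G protein alpha subunits and beta-arrestins as log2(TPM + 1), with 1 row per list, circles for pool 1, squares for pool 2 and a dashed line at 1 TPM. All 11 partners of the L receptors lie right of the line, while 3 of 16 partners of the B receptors and 2 of 6 of Adgrv1 lie left of it in at least 1 pool.

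The genes of this family are long. The median gene spanned 73.3 kb, against 17.3 kb for all protein-coding genes, and the median longest coding sequence was 2973 bases against 1170. The median number of annotated transcripts was 6, against 3. Detected members had a median span of 99.1 kb and 8 transcripts, and members that were not detected had 62.8 kb and 3 transcripts. A gene-level TPM therefore adds up many different transcript models, which were examined next.

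For each gene, transcripts were classed as long coding (at least 90% of the gene's longest coding sequence), shorter coding, subject to nonsense-mediated decay, or non-coding. Long coding transcripts held more than 50% of the gene's TPM in 9 of the 17 detected genes, and the median share was 63.9%. By expected counts, which weigh long transcripts more, they held more than 50% in 12 of 17. Long coding transcripts summed to at least 1 TPM in both pools in 14 of the 17 genes. The exceptions were Adgra1 (1.00 and 0.95 TPM), Adgrb1 (0.48 and 0 TPM) and Adgrg3 (0.70 and 0.76 TPM). Transcript values are the authors' estimates of how short reads divide among models, so they are less certain than gene values.

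**Figure D3:**
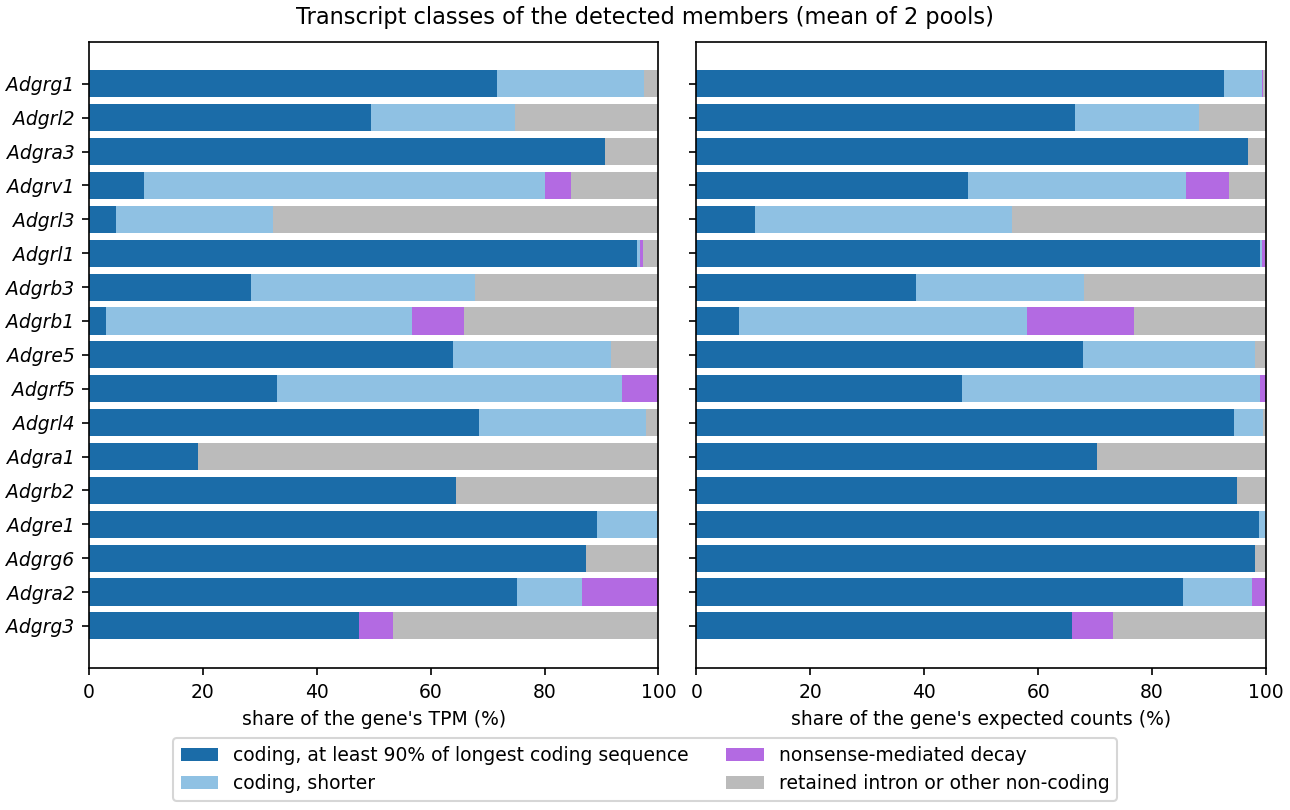
Share of each detected gene's TPM (left) and expected counts (right) held by 4 transcript classes, as the mean of the 2 pools, with genes ordered by level. Adgrl1 and Adgra3 are nearly all long coding in both panels, while Adgrv1 and Adgra1 change most between the panels.

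Counting long coding transcripts only changed the order of the members below the top. Adgrg1 stayed the first with 112 ± 14.5 TPM (SD, n = 2), followed by Adgrl2 with 40.2 ± 2.69, Adgra3 with 32.5 ± 0.70 and Adgrl1 with 23.2 ± 0.41. Adgrv1 moved from rank 4 to rank 8 with 3.40 ± 0.34 TPM, and Adgrl3 from rank 5 to rank 14 with 1.20 ± 0.19 TPM. Adgrb1 moved from rank 8 to rank 18. Its nonsense-mediated decay models, which this count leaves out, had 0.21 and 1.19 TPM.

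In Adgrg1, 2 transcripts with the same coding length of 2061 bases led. Adgrg1-201, which starts near the second window printed above, had 73.93 and 67.75 TPM, and Adgrg1-202, which starts at the first window, had 48.77 and 34.42 TPM. They held 42.7% and 28.2% of the gene's TPM in pool 1 and 48.1% and 24.4% in pool 2. Shorter models that are incomplete in the annotation, such as Adgrg1-209 with 19.75 and 17.24 TPM, held a mean of 25.7%. By expected counts these shorter models held a mean of 6.72% of the gene. The 2 full-length transcripts thus differed in start and not in coding length.

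In Adgrv1, the full transcript Adgrv1-201 has 90 exons and a coding sequence of 18894 bases. It had 3.16 and 3.64 TPM, 9.05% and 10.4% of the gene's TPM, but 46.2% and 49.2% of the gene's expected counts. Adgrv1-211, a model of 7 exons and 1248 coding bases at the start of the gene, had 10.76 and 10.99 TPM. Adgrv1-214, which begins 281.5 kb into the gene and has 954 coding bases, had 4.84 and 4.35 TPM. The level of Adgrv1 given above was therefore mostly that of short models when each transcript counts once.

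Adgrb3 and Adgrb1 had a similar layout. Adgrb3-203, which starts 600.9 kb into the gene and codes for 1956 bases, had 5.48 and 4.70 TPM, against 3.61 and 4.14 TPM for Adgrb3-207, the full transcript with 4566 coding bases. Adgrb1-203, which starts 47.6 kb into the gene and codes for 1926 bases, had 4.03 and 3.73 TPM. The full Adgrb1-201, with 4746 coding bases, had 0.48 and 0 TPM. Adgrb1-205, a nonsense-mediated decay model of 30 exons that spans nearly the same stretch, had 0 and 1.19 TPM. How reads divided between these 2 models is uncertain, so the 0 does not show that full-span RNA was absent in pool 2. How evenly the oligo-dT primed cDNA covered these genes was not examined, so use of the late starts was not tested. In both genes the late-starting transcript had a higher TPM than the full one in both pools. By expected counts the order turned in Adgrb3, with 38.2% and 39.0% of the gene for Adgrb3-207 against 30.9% and 23.6% for Adgrb3-203, and stayed in Adgrb1, with 14.9% and 0% for Adgrb1-201 against 54.5% and 44.9% for Adgrb1-203. Adgrf5, in turn, was led by Adgrf5-205 with 3.46 and 2.64 TPM, a model of 3429 coding bases that starts 66.6 kb into the gene. Adgrf5-205 is incomplete in the annotation, so this position may not be a true start. Adgra1 was led by the non-coding Adgra1-203 with 3.2 and 4.08 TPM. By expected counts the coding Adgra1-201 led, with 76.7% and 63.8% of the gene against 16.7% and 18.7% for Adgra1-203.

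**Figure D4:**
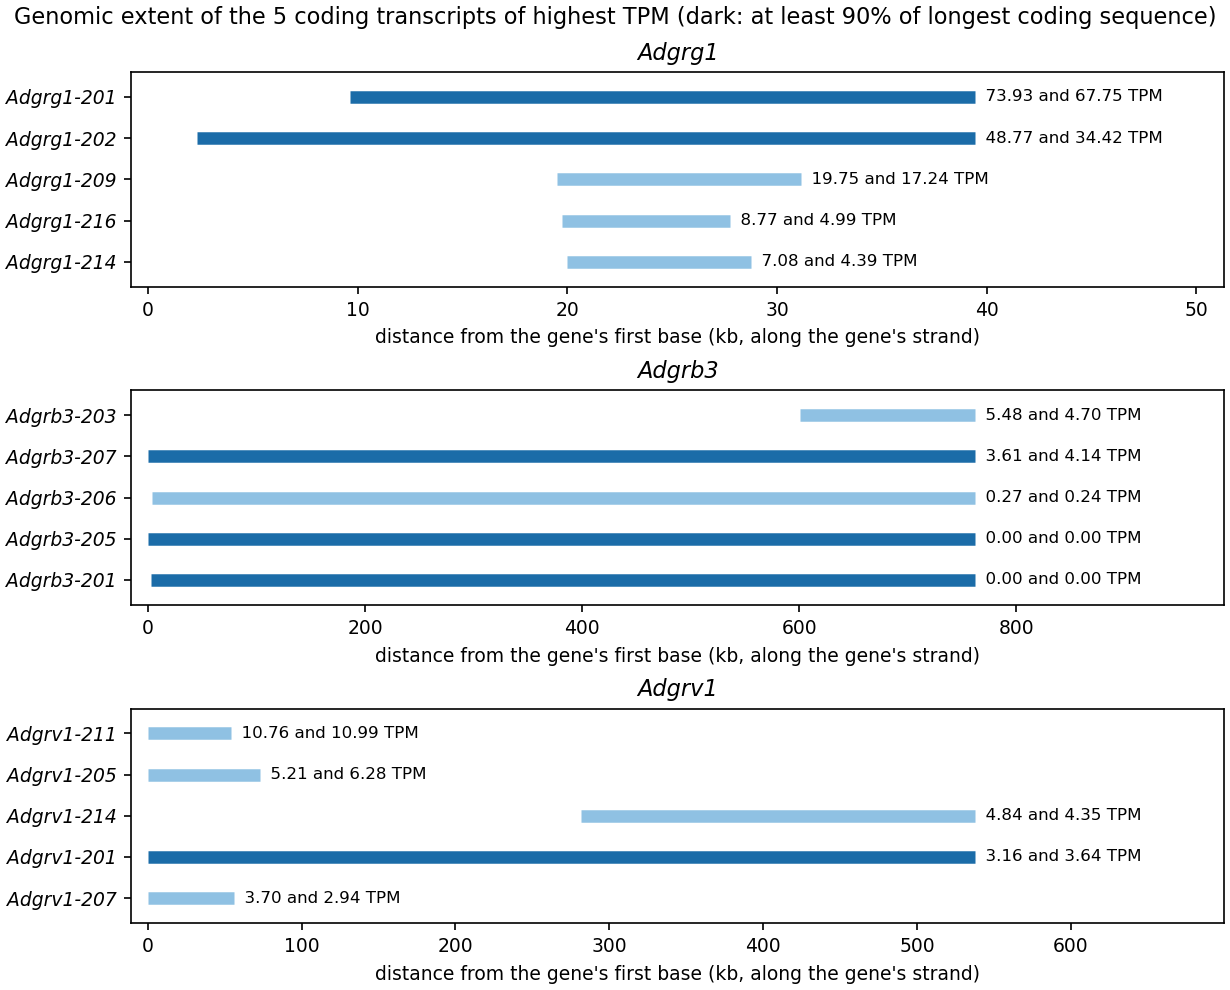
Genomic extent of the 5 coding transcripts with the highest TPM in Adgrg1, Adgrb3 and Adgrv1, as distance in kb from the gene's first base along its strand, with the TPM of pool 1 and pool 2 at the right. Dark bars are long coding transcripts and light bars shorter ones, and the light bars of Adgrb3-203 and Adgrv1-214 begin deep inside their genes.

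The latrophilins differed among themselves in the same respect. Adgrl1 was nearly all long coding, with Adgrl1-207 at 22.47 and 23.04 TPM. In Adgrl2, transcripts from the first start of the gene held 57.5% and 55.6% of coding TPM, those from a start 35.9 kb further on 22.9% and 25.3%, and those from a start 167.6 kb in 19.1% and 17.2%. Outside the coding transcripts, the retained intron Adgrl2-211 had 15.43 and 13.75 TPM. The RefSeq window of Adgrl2 belongs to the middle of these starts. In Adgrl3, non-coding transcripts held a mean of 67.7% of TPM, led by the retained intron Adgrl3-228 with 4.83 and 6.67 TPM. By expected counts the non-coding transcripts held 40.8% and 48.4% of the gene, and coding transcripts held the rest. Adgrl3-211, the coding transcript from its first start, had 2.77 and 2.34 TPM.

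The optional exons printed above were included to different degrees in related genes. Inclusion is the share of the TPM of coding transcripts spanning the exon that contain it, in pool 1 and pool 2. For the 39-base exon it was 25.9% and 29.7% in Adgrl2 and 52.9% and 60.9% in Adgrl3. Aligned without gaps, the 2 exons were identical at 25 of 39 bases (64.1%). The 27-base exon was included in 9.20% and 12.4% in Adgrl2 and in 33.3% and 30.7% in Adgrl3, and the 2 were identical at 21 of 27 bases (77.8%). By these estimates both exons were included more in Adgrl3 than in Adgrl2 in each pool, which is a description of 2 libraries with no test. In Adgrl3, skipping of the 39-base exon rests on 1 model, Adgrl3-220 (3.92 and 2.98 TPM), which is incomplete in the annotation. Inclusion of its 27-base exon rests on Adgrl3-211 (2.77 and 2.34 TPM). The shares also leave out the non-coding transcripts, which held most of the TPM of Adgrl3 but a mean of 44.6% of its expected counts.

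The other optional exons of Adgrl2 varied. The 12-base exon was included in 19.2% and 18.6%, the 45-base exon in 18.9% and 19.9% and a 129-base exon in 20.99% and 18.1%. A 97-base exon was included in 78.5% and 83.8%, and its 64-base form, with the same first base and an earlier end, in 27.2% and 40.7%, each counted against the transcripts that skip both. Adgre5 is known to be made with different numbers of EGF-like repeats through splicing. Its 147-base exon was included in 75.3% and 63.4% and its 135-base exon in 41.5% and 44.0%. Whether each of these exons codes for such a repeat was not examined here. The 165-base exon of Adgrb2 was included in 42.4% and 54.6%. The 147-base exon of Adgre5 and the 165-base exon of Adgrb2 differed more between the pools than the 4 Adgrl2 exons printed above. They did so in opposite directions. Wider still were the differences of the 64-base form in Adgrl2 and of a 204-base exon of Adgrl3 (37.0% and 49.7%).

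With 1 library per pool, differences between the pools have no replicate check. They are given as log2 ratios of normalised counts (pool 1 over pool 2) with 95% intervals that cover counting error only. Of 18 members with a mean count of at least 10, 0 passed 1.5-fold, against 11.2% of the 19063 genes so filtered (3.26% higher in pool 1 and 7.96% higher in pool 2). The ratio was below 0, that is higher in pool 2, for 15 of the 18, against 50.6% of all genes. The median was -0.10 for the members and -0.00 for all genes. Computed from TPM + 1 instead, 12 of 18 were higher in pool 2, since Adgrb1, Adgrl4 and Adgrv1 changed sign.

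Intervals left 0 out for 5 of the 18 members, against 33% of all genes so filtered. They lay above 0, higher in pool 1, for 2 members (17.8% of all genes) and below 0 for 3 (15.2%). Adgrg1 was 1.22-fold higher in pool 1, a log2 ratio of 0.29 (interval 0.24 to 0.33), and Adgrf5 was 1.29-fold higher in pool 1 (0.36, interval 0.20 to 0.53). Higher in pool 2 were Adgrb2 (1.17-fold, log2 ratio -0.23, interval -0.45 to -0.01), Adgrb3 (1.11-fold, -0.15, interval -0.27 to -0.03) and Adgrv1 (1.07-fold, -0.10, interval -0.17 to -0.02). All 5 ratios lay within the range from the 5th to the 95th percentile of all genes, -0.77 to 0.45. Scaling by the spike-in RNAs gave a median of -0.17 over all genes and -0.26 over the members, and no member changed sign.

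Within Adgrg1, the transcript from the first start had a log2 ratio of 0.52 (interval 0.45 to 0.59) and that from the second start 0.14 (0.09 to 0.20). By these estimates the higher value in pool 1 was larger for the first start. The intervals leave out the error of dividing reads between transcripts of the same coding length, so the difference between the starts is uncertain. The GABAergic neuron markers had a median log2 ratio of 0.52, with 5 of 5 higher in pool 1, the radial glia markers 0.03 with 6 of 7, and the mesenchyme markers -0.37 with 0 of 6. Their part in the Adgrg1 ratio was not tested. The endothelial markers had a median of 0.05, beside 0.36 for Adgrf5 and -0.06 for Adgrl4.

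**Figure D5:**
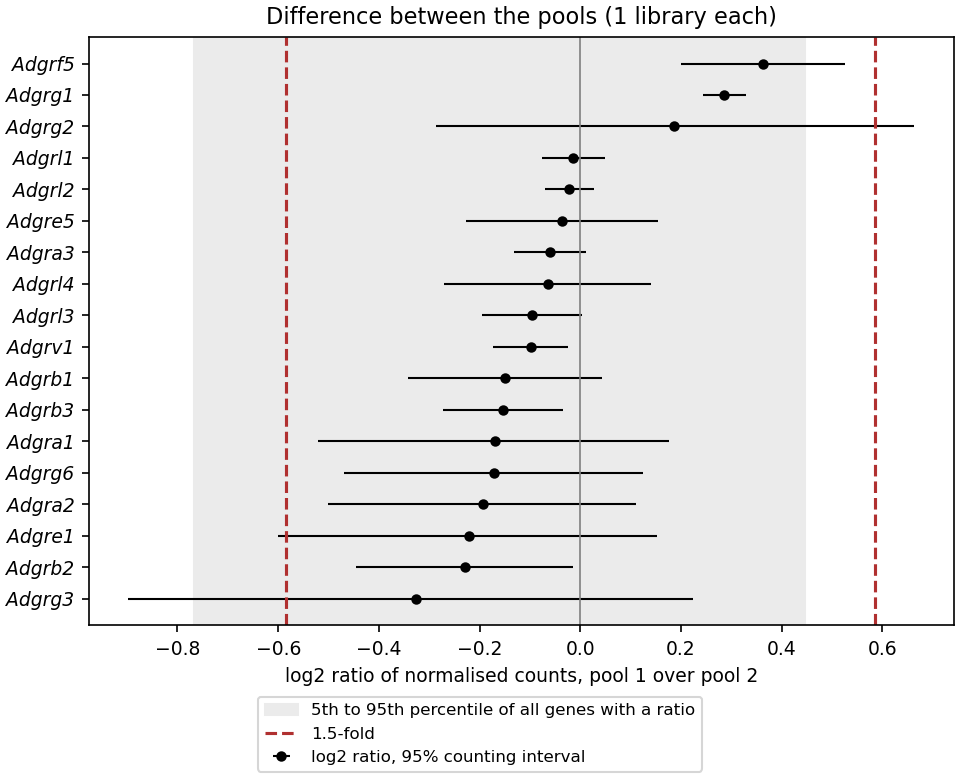
Log2 ratio of normalised counts, pool 1 over pool 2, for 18 members, with 95% counting intervals as bars, the range from the 5th to the 95th percentile of all genes shaded and 1.5-fold dashed. No point passes the dashed lines, and only the bars of Adgrf5 and Adgrg1 lie wholly right of 0.

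Some of these genes share exon sequence with genes on the opposite strand: Adgre5 with Ddx39 (130.95 and 144.58 TPM), Adgra2 with Brf2 (16.21 and 18.3 TPM), and Adgrl1, Adgrl2, Adgrl3, Adgrg2 and Adgrg6 with genes of at most 41.2 expected counts in a pool. Whether counting used strand is not given in the sources used here, so reads in the shared stretches cannot be assigned with certainty. Adgre5 had 435.3 and 469.6 expected counts, beside 4386 and 5038 for Ddx39. The annotation release mattered for single genes: with GENCODE M4, Adgrg1 had 125 TPM, Adgrl2 60.2 TPM and Adgrf5 3.45 TPM, the last at 0.494 times its M21 level.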

How the data were processed

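PolyA RNA-seq of 2 pools of E12.5 mouse forebrain was analysed from gene and transcript tables. Per the file headers, the authors deposited for each gene and transcript an expected count (estimated reads, not normalised), TPM, FPKM, lengths and a posterior mean TPM, which was treated here as a score. Per the labels, the assembly is mm10, with tables for GENCODE M21 and M4. Which aligner and quantifier made them, and in which version, is not given in the sources used here. Entries that name no gene held 5.74e-05% and 9.00e-05% of counts and were left out.

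The M21 tables were used for all main values. A gene was called detected at 1 TPM in both pools. Expected counts were rounded and scaled by TMM factors from edgeR 4.0.16 in R 4.3.3, with a prior count of 1 and a mean count of at least 10. No test across genes was possible with 1 group, so counting intervals (95%, exact binomial) are given instead. These and the floors of 3 counts leave out all other error, because amplified reads lacking molecular identifiers can stem from the same molecule. The labels call the pools biological replicates. The code was tested on simulated data. Alternatives were DESeq2 1.42.0 size factors, spike-in totals, TPM + 1, a prior count of 5, no filter, M4, FPKM, posterior means, other thresholds and each pool alone. The remaining steps ran in Python 3.11.15 with pandas 2.3.3, scipy 1.17.1 and numpy 2.4.6. All members and listed genes could be named. Members, lists, the long coding class and the rule for optional exons were chosen with earlier results of these data known. Protein features were planned but protein sequences were not used here. Values of some listed genes are not reported here.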

Additional observations from a re-analysis of the deposited data

How the results depend on the processing

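The number of detected members was 17 and ranged from 14 (FPKM of at least 1) to 18 (posterior mean TPM, or 0.5 TPM) over the alternatives, except that 11 reached 5 TPM in both pools. GENCODE M4 gave 16, with Adgrg3 at 0.87 and 1.1 TPM. With each pool left out it was 17 and 18, and the median level of the members ran from 1.71 to 2.29 TPM. That median was 2.70 under the posterior mean TPM. Without a filter on low counts, 5 members passed 1.5-fold between the pools, because members with single counts then enter. The median ratio was then -0.04. The other alternatives left that number at 0 and the median ratio between -0.26 and -0.08. Single levels moved beyond their SD for 9 of 27 members with GENCODE M4 and for 15 of 27 under posterior means, and the long coding share for 14 of 17 when counts replaced TPM. No paired analysis was possible because the study has 1 group and no contrast. Depth limits the 9 members with fewer than 10 counts in both pools, whose differences were not detectable.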
